A study of Homo sapiens with 9 samples.

Results

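The SERPIN and SPINK genes encode the main families of serine protease inhibitors outside the blood-borne macroglobulins, and 36 of them were measured among 19775 genes on expression arrays of U2OS cells. Members were all genes whose symbol follows the pattern of SERPIN with a clade letter from A to I and a number, or SPINK with a number, and whose probe set on the array carries 1 symbol only. This gave 30 SERPIN and 6 SPINK genes, read by 54 probe sets, and the brightest probe set by its mean across the 9 arrays stood for each gene. The choice used names and mean level, and no comparison between groups.

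U2OS is a human osteosarcoma line. The 9 arrays make up 3 groups with 3 samples each. One received a control hairpin with no target (shControl), and the others received 1 of 2 hairpins against BAP1 (shBAP1 #1 and shBAP1 #2), the gene of a nuclear deubiquitinase and tumour suppressor. In all 3 groups the hairpin plasmid was introduced by lipid transfection, carriers were enriched with puromycin, and the culture was arrested at the G1/S border with thymidine before RNA was taken. The labels number the samples of a group without saying whether each came from its own culture. The p-values therefore reflect only how far these samples scatter, and that scatter may be technical. The study compares gene expression with and without BAP1. How far BAP1 RNA was lowered was not analysed here.

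A serpin works as a suicide substrate. The protease cuts an exposed loop, the loop inserts into the body of the serpin, and the protease stays trapped in a covalent complex. SPINK proteins instead carry Kazal domains, small folds that block the active site of a protease as a tight, reversible plug. Clade A, C, D, E, F, G and I serpins are mostly secreted and control coagulation, fibrinolysis, complement and inflammation. Clade B serpins stay mostly inside the cell, and SERPINH1 is no inhibitor but a collagen chaperone. Bone-forming cells, from which osteosarcoma is thought to arise, export large amounts of collagen.

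Values are log2 expression from robust multi-array averaging (RMA), and a change is a difference of group means on that scale. A gene was called when its limma p-value, adjusted by the Benjamini-Hochberg method over all 19775 genes, was below 0.05. Array medians lay between 5.40 and 5.45. The difference between 3' and 5' actin probe sets, a sign of RNA integrity, was 0.47 to 0.51 in shControl, 0.39 to 0.41 in shBAP1 #1 and 0.39 to 0.46 in shBAP1 #2. It separates the controls from both hairpins, as the shared changes below do, and its part in them was not tested. Of 8 osteoblast lineage markers 4 exceeded 5.44, the median over the mean levels of all probe sets, with COL1A1 at a mean of 11.55, SPARC at 12.74, SPP1 at 9.12 and RUNX2 at 7.20. SP7, COL1A2, ALPL and IBSP lay below it. Of the markers of other cell types in which these inhibitors are classically found, 2 of 9 keratinocyte, 2 of 9 hepatocyte, 5 of 6 neuronal, 0 of 4 leukocyte and 0 of 3 pancreatic markers reached it. The keratins KRT5 (4.66) and KRT14 (4.05) and the albumin gene ALB (3.89) were dim. The mean level over the keratinocyte markers was 5.95 to 6.02 in shControl, 6.0 to 6.07 in shBAP1 #1 and 5.96 to 5.99 in shBAP1 #2.

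The inhibitor family did not move as a block. With shBAP1 #1, 8 of 36 members were called (22.2%), 6 higher and 2 lower, against 25.6% of all genes. With shBAP1 #2, 8 were called (22.2%), 5 higher and 3 lower, against 33.4%. Both shares lie below the background of these comparisons. By direction, the background was 13.0% higher and 12.6% lower with shBAP1 #1, and 16.9% higher and 16.5% lower with shBAP1 #2. The 2 hairpins were also compared with each other, and 5 members differed (13.9%, against 34.7% of all genes). For the mean of both hairpins against shControl 7 were called (19.4%, against 28.7%), and without shControl replicate 1 the number was 4. The share of all genes in that fit is not given here. The median change of the members was 0.02 with shBAP1 #1 and 0.04 with shBAP1 #2, and that of all genes 0.01 and 0.02. Both hairpins changed 4 members in the same direction (11.1%, against 11.7% of all genes): SPINK6, SERPINB5 and SERPINH1 rose (3 members, 8.33%, against 6.22% of all genes) and SERPINB1 fell (1 member, 2.78%, against 5.49%). They changed 1 member, SERPINI1, in opposite directions (2.78%, against 3.44%). Both comparisons share the control arrays.

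In all, 11 members (30.6%, against 48.6% of all genes) were called in at least 1 of the 4 contrasts. Of 15 members with a mean at or above 5.44, 10 were among them (66.7%, against 68.2% of 12742 genes at that level). Of 21 members below it, 1 was called (4.76%, against 13.1% of 7033 genes). SPINK6 is on the bright side only through its shBAP1 arrays. Split by the shControl mean instead, a choice made after seeing the data, 9 of 14 brighter members (64.3%, against 68.2% of genes) and 2 of 22 dimmer ones (9.09%, against 13.6%) were called. The groups did not overlap in 9 members for shBAP1 #1 against shControl (38.8% of all genes), in 12 for shBAP1 #2 against shControl (42.9%) and in 9 for the hairpins against each other (43.9%). In 5 members (13.9%, against 18.6% of all genes) all 6 shBAP1 arrays lay beyond the controls on the same side. The count of 9 between the hairpins was 18 without shBAP1 #1 replicate 3 and 14 without shBAP1 #2 replicate 1 or replicate 2. A smaller group overlaps less in any gene, and the share over all genes in those fits is not given here.

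**Figure D1:**
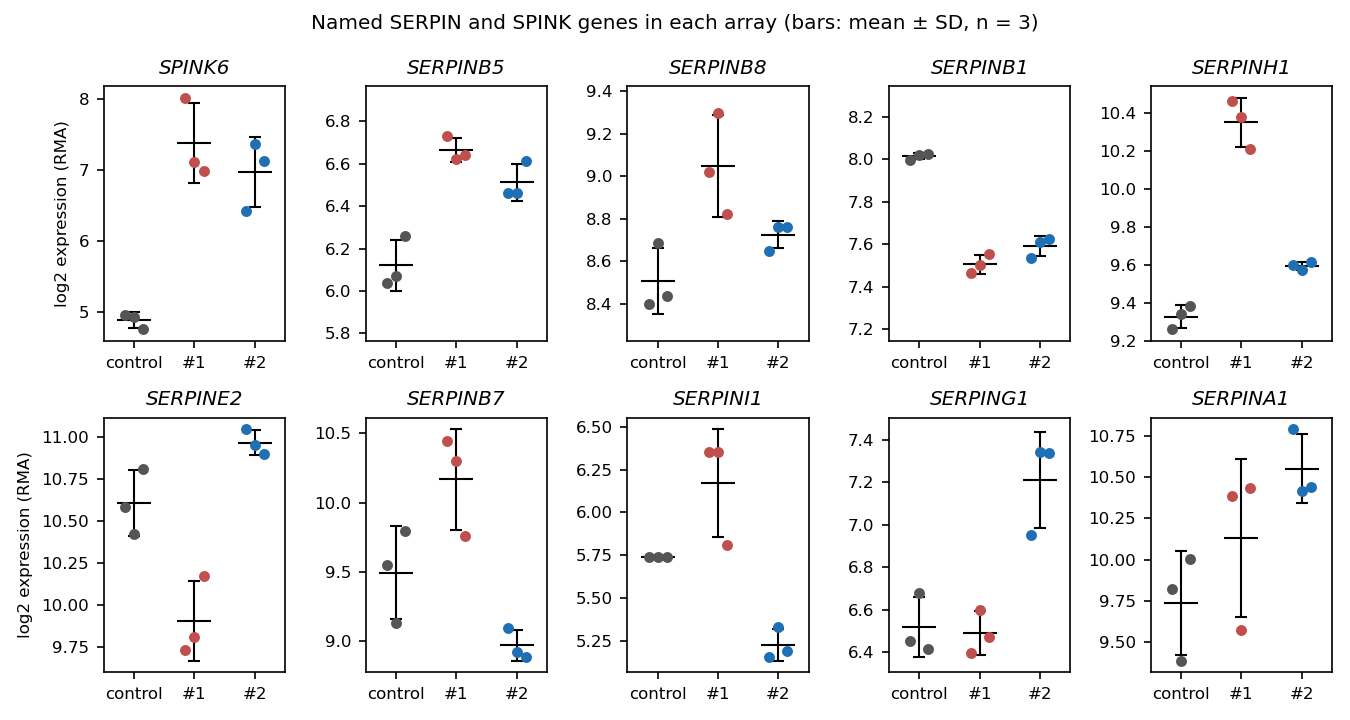
Log2 expression (RMA, vertical axis, scaled per gene) of the 10 named members in each array, with groups on the horizontal axis, 1 point per array and bars for the mean ± SD of 3 arrays. SPINK6 lies below 5 in all 3 controls and above 6.4 in all 6 shBAP1 arrays, whereas SERPINE2, SERPINB7 and SERPINI1 move apart between the hairpins.

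SPINK6 showed the largest change of any member. Its product is a secreted Kazal inhibitor of kallikreins, known from the outer layers of skin. The probe set read 4.96, 4.93 and 4.75 in the 3 control arrays, 8.02, 7.11 and 6.99 with shBAP1 #1, and 6.42, 7.36 and 7.12 with shBAP1 #2. All 6 shBAP1 arrays were thus above all controls, which lay under the median probe set level. Its log2 change was 2.49 ± 0.28 with shBAP1 #1 (SE, n = 3), a 5.63-fold rise (adjusted p = 9.87e-05 by limma), and 2.09 ± 0.28 with shBAP1 #2, a 4.24-fold rise (adjusted p = 0.000219). The values used here carry no detection call, and 5.44 is a median and not a detection limit. Whether SPINK6 was detected in the controls is therefore unknown. The size of both folds is uncertain and may be understated, which was not tested. In bulk RNA, more cells of a type and more RNA per cell cannot be told apart. Of 9 keratinocyte markers, KRT10 (mean 10.57) and SFN (13.03) were bright and 7 were below 5.44. With shBAP1 #1, DSP (4.69 in shControl, 5.5 with shBAP1 #1) and IVL (4.58 and 4.88) were called higher and KRT10 lower. With shBAP1 #2, KRT5 and SFN were called lower and none higher. Their part in the SPINK6 result was not tested. Between the hairpins the difference was -0.41 ± 0.28 and was not called (adjusted p = 0.312).

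The 250 bases before the most upstream RefSeq start of SPINK6 (chr5:148202528-148202777 on the plus strand, assembly GRCh38.p14) are shown because this gene carries the largest change. All windows were searched on both strands for 5 motifs. These were the TATA box TATAAA and the AP-1 motif TGANTCA. The CCAAT box was searched by its own letters, as was the GC box GGGCGG. The last was the heat shock element core GAANNTTC. The SPINK6 window holds none of them. No match says only that these letters are not in this window.
SPINK6: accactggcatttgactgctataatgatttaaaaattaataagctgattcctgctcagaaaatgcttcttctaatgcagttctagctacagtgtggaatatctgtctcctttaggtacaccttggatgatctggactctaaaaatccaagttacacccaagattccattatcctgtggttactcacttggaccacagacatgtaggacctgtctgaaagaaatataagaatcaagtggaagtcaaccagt

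The other 5 SPINK genes were not called in any contrast, and all were dim, with means of 3.64 to 5.14. SPINK1, the pancreatic trypsin inhibitor, is mentioned after its values were seen. It read 3.77, 4.25 and 4.38 in the controls, 4.39, 5.83 and 4.39 with shBAP1 #1, and 4.51, 4.69 and 4.38 with shBAP1 #2. Replicate 2 of shBAP1 #1 stood far above the other 8 arrays, and the changes of 0.74 ± 0.33 and 0.39 ± 0.33 were not called (adjusted p = 0.145 and 0.432).

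Among the clade B serpins, which act mainly inside cells, 4 of 11 members were called with at least 1 hairpin, where 11 of 36 over both families (30.6%) and 43.8% of all genes were. SERPINB5 was higher with both. SERPINB5 encodes maspin, a serpin without inhibitory activity that is studied as a tumour suppressor of epithelia. It read 6.04, 6.07 and 6.26 in shControl, 6.73, 6.62 and 6.64 with shBAP1 #1, and 6.46, 6.46 and 6.61 with shBAP1 #2. The 3 groups were close but both hairpin groups lay wholly above the controls. The change was 0.54 ± 0.08 with shBAP1 #1 (adjusted p = 0.000570) and 0.39 ± 0.08 with shBAP1 #2 (adjusted p = 0.00297). Its other probe set, at a mean of 3.31, changed by 0.06 and -0.01 and was not called, and the mean of both gave 0.30 and 0.19 (adjusted p = 0.00442 and 0.0329).

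SERPINB8, an intracellular inhibitor of furin-type proteases, rose with shBAP1 #1. Its values were 8.40, 8.69 and 8.44 in shControl, 9.02, 9.30 and 8.82 with shBAP1 #1, and 8.65, 8.76 and 8.76 with shBAP1 #2. The shBAP1 #1 arrays were all above the controls, and those of shBAP1 #2 overlapped them. The change was 0.54 ± 0.12 (adjusted p = 0.00638) with shBAP1 #1 and 0.22 ± 0.12 (adjusted p = 0.202) with shBAP1 #2. Averaged with its other probe set, at a mean of 5.74, SERPINB8 changed by 0.345 with shBAP1 #1 (adjusted p = 0.0145). The hairpins differed by -0.32 ± 0.12, not called at an adjusted p = 0.0584. That difference passed the threshold without shBAP1 #1 replicate 3 (-0.435, adjusted p = 0.0148), without shControl replicate 2 (-0.32, adjusted p = 0.0491) with dim probe sets left out (adjusted p = 0.0459) and with the replicate number as a block (adjusted p = 0.0246).

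SERPINB1 was the member that fell with both hairpins. It encodes the leukocyte elastase inhibitor, which blocks neutrophil elastase, proteinase 3 and cathepsin G. The chosen probe set read 7.997, 8.02 and 8.02 in shControl, 7.47, 7.50 and 7.55 with shBAP1 #1, and 7.54, 7.61 and 7.62 with shBAP1 #2. No array of either hairpin reached a control. The changes were -0.51 ± 0.06 (adjusted p = 0.000137) and -0.42 ± 0.06 (adjusted p = 0.000326). SERPINB1 has 3 further probe sets, whose changes differ in size. One of them changed by -0.16 with shBAP1 #1, not called, and by -1.51 with shBAP1 #2. Another changed by -0.42 and -0.71, and the last by -0.07 and -0.05, not called with either hairpin. The sign was negative in all 4, also where the change was not called, and the balance between the hairpins depended on the probe set. With the mean of the 4, the hairpins differed by -0.385 (adjusted p = 0.000164) in place of 0.08 (adjusted p = 0.332).

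SERPINB7 separated the hairpins. Its product, megsin, is a cytoplasmic serpin of kidney mesangium and epidermis, and its loss causes a skin thickening disease of palms and soles. It read 9.55, 9.13 and 9.80 in shControl, 10.45, 10.30 and 9.76 with shBAP1 #1, and 9.10, 8.92 and 8.88 with shBAP1 #2. Control values lay between those of the hairpins, and only the shBAP1 #1 arrays overlapped them, through replicate 3. The difference of shBAP1 #2 from shBAP1 #1 was -1.201 ± 0.19 (adjusted p = 0.000589). Against shControl the changes were 0.68 ± 0.19 with shBAP1 #1 (adjusted p = 0.0237) and -0.53 ± 0.19 with shBAP1 #2 (adjusted p = 0.0573, not called). The call with shBAP1 #1 was lost without shBAP1 #1 replicate 1 (0.54, adjusted p = 0.101) or replicate 2 (0.61, adjusted p = 0.0824) and without shControl replicate 1 (0.70, adjusted p = 0.0575) or replicate 2 (0.50, adjusted p = 0.0884). The value with shBAP1 #2 passed the threshold without shBAP1 #1 replicate 3 (adjusted p = 0.0216) and without shControl replicate 2 (-0.71, adjusted p = 0.0166), and in 3 other fits (lowest adjusted p = 0.0351).

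Upstream sequence is shown for these 3 genes because they lie in the same cluster of SERPINB genes and moved differently. SERPINB5 is at chr18:63476708-63476957 on the plus strand, SERPINB7 at chr18:63752807-63753056 on the plus strand and SERPINB8 at chr18:63969831-63970080 on the plus strand (RefSeq, GRCh38.p14, 250 bases before the most upstream start). Capitals mark matches to the 5 motifs. SERPINB5 holds TGANTCA 146 bases before its start and overlapping GGGCGG matches at 77 and 72, and SERPINB7 holds GAANNTTC at 51. SERPINB8 holds TGANTCA at 185 and at 28, CCAAT at 157 and overlapping matches of TATAAA at 142 and 140.
SERPINB5: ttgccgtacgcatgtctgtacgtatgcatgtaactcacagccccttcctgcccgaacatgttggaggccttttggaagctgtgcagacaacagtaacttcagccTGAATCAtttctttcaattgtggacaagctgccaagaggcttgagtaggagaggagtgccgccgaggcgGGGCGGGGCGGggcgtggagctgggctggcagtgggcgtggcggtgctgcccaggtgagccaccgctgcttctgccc
SERPINB7: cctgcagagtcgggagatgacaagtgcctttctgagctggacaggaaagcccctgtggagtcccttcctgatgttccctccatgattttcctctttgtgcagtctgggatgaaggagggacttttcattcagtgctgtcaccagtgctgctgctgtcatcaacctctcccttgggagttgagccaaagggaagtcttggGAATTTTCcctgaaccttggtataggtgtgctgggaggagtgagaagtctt
SERPINB8: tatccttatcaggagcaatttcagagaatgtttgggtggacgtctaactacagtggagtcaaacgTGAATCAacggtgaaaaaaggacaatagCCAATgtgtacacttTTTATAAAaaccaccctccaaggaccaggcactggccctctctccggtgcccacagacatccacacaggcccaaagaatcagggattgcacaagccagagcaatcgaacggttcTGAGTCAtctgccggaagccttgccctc

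SERPINH1, the collagen chaperone of the endoplasmic reticulum also called HSP47, rose with both hairpins and more with shBAP1 #1. It read 9.26, 9.34 and 9.38 in shControl, 10.47, 10.38 and 10.21 with shBAP1 #1, and 9.60, 9.57 and 9.62 with shBAP1 #2. The 3 groups did not overlap at all. The rise was 1.03 ± 0.08 (2.04-fold, adjusted p = 1.24e-05) with shBAP1 #1 and 0.27 ± 0.08 (1.204-fold, adjusted p = 0.0185) with shBAP1 #2, and the hairpins differed by -0.76 ± 0.08 (adjusted p = 3.15e-05). The call with shBAP1 #2 was lost without shBAP1 #2 replicate 3 (0.26, adjusted p = 0.0572) and without shControl replicate 1 (0.235, adjusted p = 0.0755). In the same arrays its client collagen COL1A1 had means of 11.25 in shControl, 12.25 with shBAP1 #1 and 11.15 with shBAP1 #2, and was called with shBAP1 #1.

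SERPINH1 is known as a heat shock gene, which is why its upstream window is shown (chr11:75562003-75562252 on the plus strand, 250 bases, GRCh38.p14). The capitals mark a GAANNTTC match 71 bases before the start, a heat shock element core that 5.85% of the 27305 windows hold.
SERPINH1: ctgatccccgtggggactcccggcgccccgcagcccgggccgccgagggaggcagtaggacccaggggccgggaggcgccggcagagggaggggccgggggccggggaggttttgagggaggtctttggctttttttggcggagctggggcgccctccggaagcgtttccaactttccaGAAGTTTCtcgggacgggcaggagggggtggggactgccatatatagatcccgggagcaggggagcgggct

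Among secreted inhibitors that act on the plasminogen system, SERPINE2 and SERPINI1 differed between the hairpins, in opposite directions. SERPINE2, protease nexin-1, inhibits thrombin, urokinase and plasmin at the cell surface. It read 10.58, 10.42 and 10.81 in shControl, 9.73, 9.81 and 10.17 with shBAP1 #1, and 11.05, 10.95 and 10.90 with shBAP1 #2. The control arrays lay between the hairpins without overlap on either side. SERPINE2 fell by 0.70 ± 0.13 with shBAP1 #1 (adjusted p = 0.00196), and its change with shBAP1 #2 was 0.36 ± 0.13 at the threshold (adjusted p = 0.05003, not called). The hairpins differed by 1.06 ± 0.13 (adjusted p = 9.0e-05). The value with shBAP1 #2 passed the threshold without shBAP1 #1 replicate 1 (0.36, adjusted p = 0.0481) or replicate 3 (0.36, adjusted p = 0.0187) and without shControl replicate 3 (0.46, adjusted p = 0.0231), and in 4 other fits (lowest adjusted p = 0.0309). Its other probe set, at a mean of 3.98, was not called. The mean of both gave -0.46 with shBAP1 #1 (adjusted p = 0.00631) and 0.63 between the hairpins (adjusted p = 0.000629).

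The 250 bases before the most upstream SERPINE2 start (chr2:224038641-224038890 on the minus strand, GRCh38.p14) are shown for contrast with SERPINB7, which moved the other way between the hairpins. The capitals mark GGGCGG on the opposite strand at 230 and 183 bases before the start.
SERPINE2: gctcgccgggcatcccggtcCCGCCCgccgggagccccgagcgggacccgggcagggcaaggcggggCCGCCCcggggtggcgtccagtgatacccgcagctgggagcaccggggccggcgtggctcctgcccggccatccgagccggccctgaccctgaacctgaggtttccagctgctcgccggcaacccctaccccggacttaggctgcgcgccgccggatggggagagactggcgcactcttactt

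SERPINI1 encodes neuroserpin, an inhibitor of tissue plasminogen activator. RMA returned the same value, 5.74, for all 3 control arrays, as it did for 125 genes (0.632% of all). The probe set read 6.36, 6.35 and 5.81 with shBAP1 #1 and 5.15, 5.33 and 5.19 with shBAP1 #2. All arrays of shBAP1 #1 were above the controls, replicate 3 only just, and all of shBAP1 #2 below them. SERPINI1 rose by 0.43 ± 0.13 with shBAP1 #1 (adjusted p = 0.0319), fell by 0.51 ± 0.13 with shBAP1 #2 (adjusted p = 0.0105), and differed by -0.95 ± 0.13 between the hairpins (adjusted p = 0.000232). The rise with shBAP1 #1 was lost without shBAP1 #1 replicate 1 or 2 (0.34 each, adjusted p = 0.130 and 0.121) and without shControl replicate 1, 2 or 3 (0.43 each, adjusted p = 0.0858, 0.0787 and 0.0804). It was also lost when the fit held only these 2 groups (adjusted p = 0.0566). The mean level over 6 neuronal markers was 7.93 to 8.09 in shControl, 8.22 to 8.28 with shBAP1 #1 and 7.73 to 7.9 with shBAP1 #2. Singly they differed: SYT1 was called higher with shBAP1 #1 and lower with shBAP1 #2, as SERPINI1 was, RBFOX3 and SNAP25 were lower with both, and NEFL was higher with both. TUBB3 was higher with shBAP1 #1, and GAP43 lower with shBAP1 #2. Their part in this result was not tested.

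SERPING1 rose with shBAP1 #2 and differed between the hairpins. It encodes the C1 inhibitor, which restrains the start of the classical complement pathway and plasma kallikrein. It read 6.46, 6.68 and 6.42 in shControl, 6.39, 6.6 and 6.47 with shBAP1 #1, and 6.95, 7.34 and 7.34 with shBAP1 #2. The control and shBAP1 #1 values intermingled, and every shBAP1 #2 array was above both groups. The change was 0.69 ± 0.12 with shBAP1 #2 (1.62-fold, adjusted p = 0.000944), -0.03 ± 0.12 with shBAP1 #1 (adjusted p = 0.912) and 0.72 ± 0.12 between them (adjusted p = 0.00065).

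SERPINA1, the gene of alpha-1 antitrypsin, the main inhibitor of neutrophil elastase in plasma, was the only called member of 10 in clade A. It read 9.82, 9.39 and 10.00 in shControl, 10.38, 9.58 and 10.43 with shBAP1 #1, and 10.79, 10.42 and 10.44 with shBAP1 #2. Replicate 2 was the lowest of its group in all 3 groups, and the shBAP1 #1 arrays overlapped the controls. The rise with shBAP1 #2 was 0.81 ± 0.23 (1.75-fold, adjusted p = 0.0177). The change of 0.39 ± 0.23 with shBAP1 #1 was not called (adjusted p = 0.265) and passed the threshold without shBAP1 #1 replicate 2 (0.67, adjusted p = 0.0218). The call with shBAP1 #2 was lost without shBAP1 #2 replicate 1 (0.69, adjusted p = 0.0592) and without shControl replicate 2 (0.64, adjusted p = 0.0733). A further bright probe set of SERPINA1 had changes of 0.46 and 0.93, while 2 others, at means of 3.27 and 4.45, were not called. The mean of all 4 gave 0.486 with shBAP1 #2 (adjusted p = 0.0289).

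The remaining called member, SERPIND1, which encodes the thrombin inhibitor heparin cofactor II, is outside the rule for named genes and was chosen after its values were seen. It is dim, with 4.34, 4.39 and 4.58 in shControl, 4.41, 4.35 and 4.29 with shBAP1 #1, and 3.89, 4.21 and 4.29 with shBAP1 #2. It fell by 0.31 ± 0.11 with shBAP1 #2 (adjusted p = 0.0464). Leaving out any array but shBAP1 #2 replicate 3 ended that call. The adjusted p then ran from 0.0569 (without shControl replicate 1) to 0.159 (without shControl replicate 3, -0.24), and the value was -0.19 without shBAP1 #2 replicate 1. A fit of these 2 groups alone ended it too (adjusted p = 0.083).

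**Figure D2:**
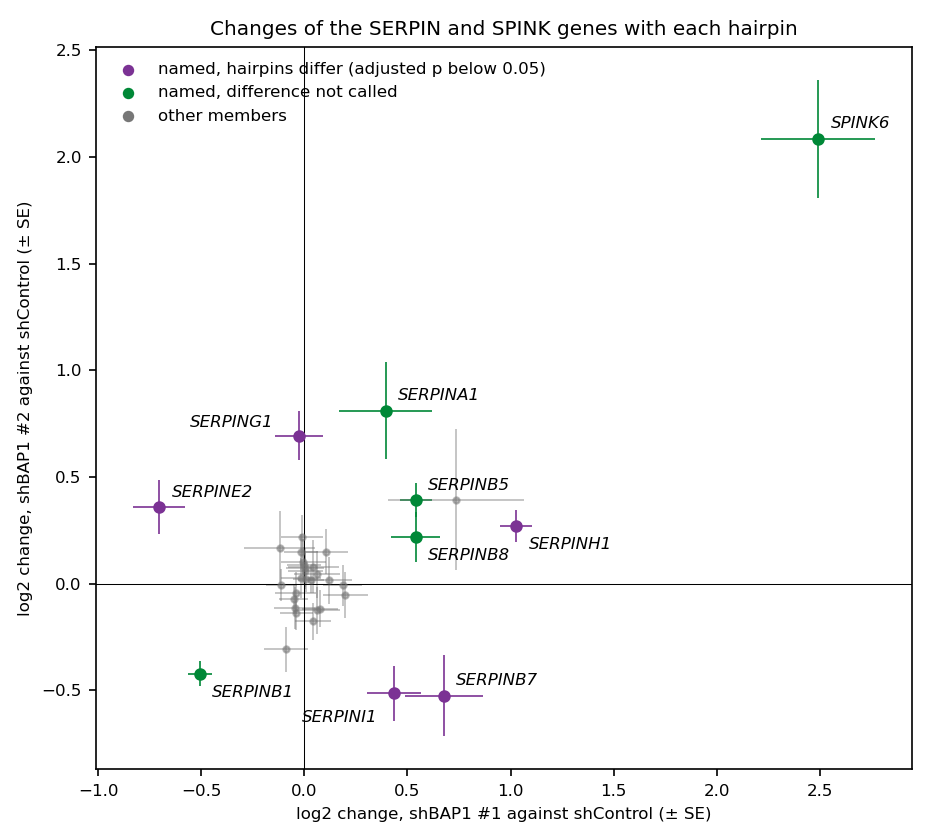
Log2 change of each of the 36 members with shBAP1 #1 (horizontal axis) and shBAP1 #2 (vertical axis) against shControl, with bars for the SE of the fit and colours for whether the hairpins differed. Most members lie near the origin, SPINK6 lies far from it with both hairpins at 2.49 and 2.09, and SERPINE2, SERPINB7 and SERPINI1 fall in the quadrants of opposite signs. Both axes use the same control arrays.

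The 25 members that were not called in any contrast include the plasma inhibitors SERPINA3, SERPINA4, SERPINA5, SERPINC1 (antithrombin) and SERPINF2 (antiplasmin), the hormone carriers SERPINA6 and SERPINA7, and the squamous cell antigens SERPINB3 and SERPINB4. Leaving SPINK1 aside, their changes ran from -0.12 to 0.20 with shBAP1 #1 and from -0.18 to 0.22 with shBAP1 #2. Of the 25, 5 had a mean at or above 5.44. SERPINF1, which encodes the secreted factor PEDF of bone and retina, is the brightest of these 5, was picked after its values were seen, and read 7.36, 7.06 and 7.62 in shControl, 6.97, 7.08 and 7.63 with shBAP1 #1, and 7.47, 7.60 and 7.48 with shBAP1 #2. Its groups overlapped, and its changes were -0.12 (adjusted p = 0.708) and 0.17 (adjusted p = 0.530). For the dim members a change may go unseen, since their probe sets sit near the background. SERPINB3 and SERPINB4 are near-identical copies, and 1 probe set that matches both was left out.

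Many members lie side by side in the genome in clusters. In the SERPINA cluster 9 measured members are neighbours, of which 5 had a mean at or above 5.44 and 1, SERPINA1, was called with either hairpin. In the SERPINB cluster, which runs from SERPINB5 to SERPINB8 over 9 measured members, 3 were above that level, and SERPINB5, SERPINB7 and SERPINB8 were the 3 called with either hairpin. Among the measured genes, the dim SERPINB10 lies between SERPINB7 and SERPINB8, and the shBAP1 #2 changes of that pair were -0.53 and 0.22. In the SPINK cluster 4 measured members lie together, and SPINK6 was called. Called were thus 1 of 9, 3 of 9 and 1 of 4 members, against 43.8% of all genes with at least 1 hairpin. Of the 3 nearest measured genes on each side of SPINK6, 1 was called with each hairpin (25.6% and 33.4% of all genes were). It was C5orf46, the closest on the upstream side, at 1.53 with shBAP1 #1 (adjusted p = 9.57e-06) and 0.37 with shBAP1 #2 (adjusted p = 0.0191). SPINK13 and SPINK7 on the other side had changes of at most 0.08 and were not called. Around the other members checked in this way, the counts ran from 0 to 2 with shBAP1 #1 and from 0 to 3 with shBAP1 #2.

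**Figure D3:**
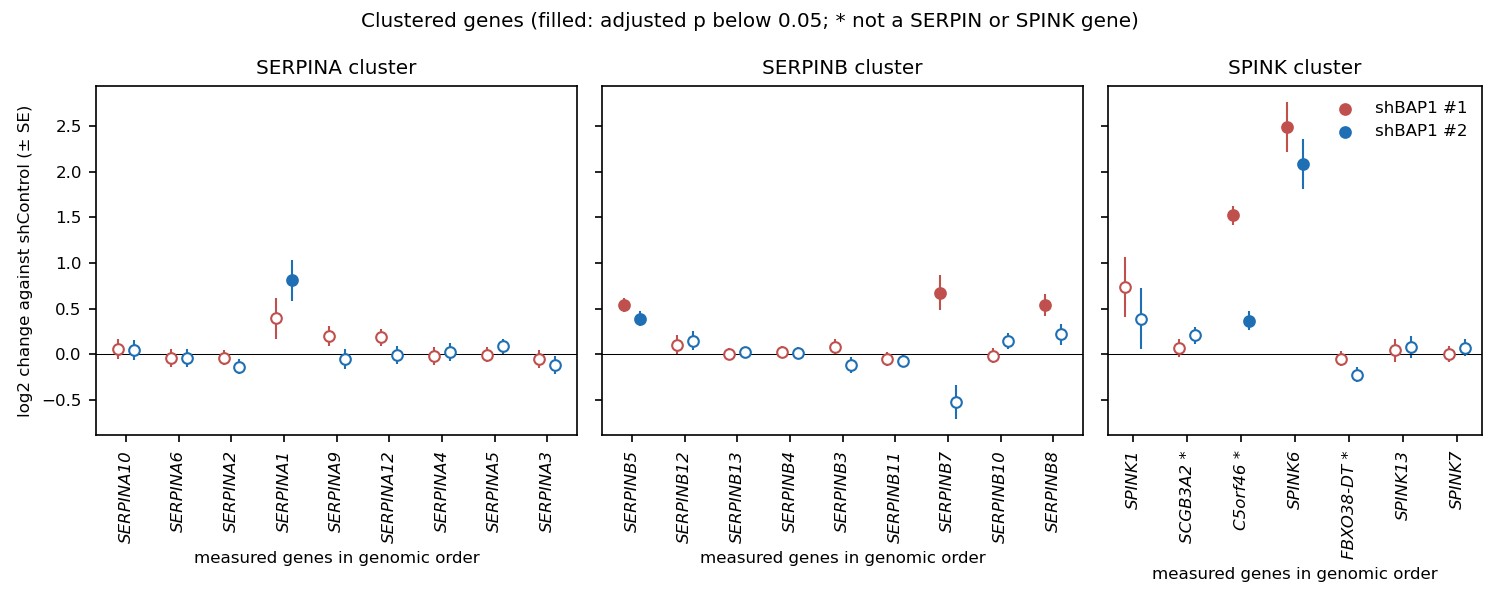
Log2 change against shControl (vertical axis, bars for SE) of the measured genes of 3 inhibitor clusters in genomic order (horizontal axis), for each hairpin. Filled points passed the threshold; C5orf46, beside SPINK6, is filled for both hairpins. Open points away from 0 are SPINK1 (0.74 and 0.39), SERPINB7 with shBAP1 #2 (-0.53) and SERPINA1 with shBAP1 #1 (0.39).

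RefSeq upstream windows were found for 29 of 36 members. TGANTCA was present in 6 of these (20.7%, against 6.57% of 27305 genes): SERPINB5, SERPINB8, SERPINB12, SERPINB13, SERPINI2 and SPINK13. Of these 6, SERPINB5 and SERPINB8 were called with at least 1 hairpin, as 43.8% of all genes were, and the other 4 were dim. A link between the motif and the changes was not tested. TATAAA was present in 6 (20.7%, against 11.2%), CCAAT in 8 (27.6%, against 33.0%), GGGCGG in 6 (20.7%, against 42.2%) and GAANNTTC in 2 (6.90%, against 5.85%), SERPINH1 and SERPINB7. A match is a description of the sequence, not a binding site.

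The proteases and receptors of the systems that these inhibitors act in were read from 6 gene lists. In the plasminogen activation list, 3 of 13 measured genes rose with both hairpins (6.22% of all genes did), 0 fell with both (5.49%) and 1 changed in opposite directions (3.44%). PLAUR, the urokinase receptor, read 9.81, 9.62 and 9.86 in shControl, 10.96, 10.91 and 10.64 with shBAP1 #1, and 10.41, 10.52 and 10.51 with shBAP1 #2. It rose by 1.07 ± 0.10 (adjusted p = 3.36e-05) and 0.71 ± 0.10 (adjusted p = 0.000261). ANXA2 and S100A10, whose products form a plasminogen-binding complex at the cell surface, rose by 0.24 and 0.39 with shBAP1 #1 and by 0.43 and 0.29 with shBAP1 #2. The S100A10 call with shBAP1 #2 (adjusted p = 0.0235) was lost without shBAP1 #2 replicate 1 (0.28, adjusted p = 0.0546), 2 (0.30, adjusted p = 0.0554) or 3 (0.30, adjusted p = 0.0545) and without shControl replicate 1 (0.26, adjusted p = 0.0885) or 3 (0.26, adjusted p = 0.0762). When a gene's probe sets were averaged, neither ANXA2 with shBAP1 #1 (0.15, adjusted p = 0.0949) nor S100A10 with either hairpin (0.23 and 0.14, adjusted p = 0.114 and 0.311) was called, which leaves 1 gene of this list.

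PLAT, the tissue plasminogen activator that neuroserpin and SERPINE2 inhibit, went opposite ways. It read 8.90, 8.95 and 8.94 in shControl, 9.28, 9.35 and 9.20 with shBAP1 #1, and 8.08, 8.02 and 7.997 with shBAP1 #2. The 3 groups did not overlap. PLAT rose by 0.35 ± 0.06 with shBAP1 #1 (adjusted p = 0.00208), fell by 0.90 ± 0.06 with shBAP1 #2 (adjusted p = 6.98e-06), and differed by -1.25 between them (adjusted p = 1.08e-06). PLGRKT, a plasminogen receptor, changed by 0.24 (adjusted p = 0.252) and -1.15 (adjusted p = 0.000104), with a difference of -1.39. The value with shBAP1 #1 passed the threshold without shBAP1 #2 replicate 1 (adjusted p = 0.0333) and in the fit of these 2 groups alone (adjusted p = 0.0145).

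Among coagulation genes, 2 of 17 rose and 1 fell with both hairpins, where 6.22% and 5.49% of all genes did. PROS1, the anticoagulant protein S gene, read 6.53, 6.86 and 6.70 in shControl, 7.92, 8.61 and 7.77 with shBAP1 #1, and 8.29, 8.55 and 8.73 with shBAP1 #2. It rose by 1.41 ± 0.20 (adjusted p = 0.000439) and 1.83 ± 0.20 (adjusted p = 6.51e-05). The thrombin receptor family gene F2RL2 rose by 0.93 and 1.25, and the tissue factor gene F3 changed by -0.49 and -0.40, both called with each hairpin. F12 rose by 0.40 with shBAP1 #2 and was 0.00 with shBAP1 #1, with a difference of 0.40 (adjusted p = 0.00129). With the mean of its probe sets these values were 0.25 for shBAP1 #2 and 0.18 for the difference (adjusted p = 0.00796 and 0.0379). F2R changed by 0.22 with shBAP1 #1 (adjusted p = 0.0505) and -0.125 with shBAP1 #2 (adjusted p = 0.244), neither called. Between the hairpins F2R differed by -0.35 (adjusted p = 0.0038). With the mean of its probe sets the shBAP1 #2 change was called (-0.52, adjusted p = 0.00138). The shBAP1 #1 change passed the threshold in some other fits (lowest adjusted p = 0.0359).

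Of 27 kallikreins, some of which SPINK6 inhibits, and related epithelial proteases, 1 rose and 1 fell with both hairpins (6.22% and 5.49% of all genes). With shBAP1 #1 alone 1 was higher and 1 lower, where 13.0% and 12.6% of all genes were. With shBAP1 #2 alone 3 were higher and 1 lower, where 16.9% and 16.5% of all genes were. FURIN, the proprotein convertase that SERPINB8 inhibits, rose by 0.29 (adjusted p = 0.0103) and 0.395 (adjusted p = 0.00122). The dim KLK10 changed by -0.25 with each. With the mean of its probe sets it was -0.08 with shBAP1 #1 and 0.06 with shBAP1 #2, so that its sign turned, and neither was called (adjusted p = 0.568 and 0.59). Fewer than 2 genes of this list were called with both in 7 of 9 fits that left out 1 array, those without shBAP1 #1 replicate 1, 2 or 3, shBAP1 #2 replicate 1 or 3, or shControl replicate 1 or 2, which each kept 1. KLK6 rose by 0.83 with shBAP1 #2 (adjusted p = 0.00659) and was 0.24 with shBAP1 #1 (adjusted p = 0.452). ST14 changed by -0.06 with shBAP1 #1 (adjusted p = 0.731) and 0.26 with shBAP1 #2 (adjusted p = 0.057), neither called. Between the hairpins ST14 differed by 0.32 (adjusted p = 0.0213). That call was lost with the mean of its probe sets (0.135, adjusted p = 0.205). It was also lost without shBAP1 #1 replicate 3 (adjusted p = 0.0724) or shBAP1 #2 replicate 2 (adjusted p = 0.0774). The shBAP1 #2 change passed the threshold in some other fits (lowest adjusted p = 0.024). Of 12 leukocyte serine proteases, 0 were called in limma with either hairpin, where 25.6% (shBAP1 #1) and 33.4% (shBAP1 #2) of all genes were. The list includes neutrophil elastase, a target of SERPINB1 and SERPINA1. In it 1 and 0 genes had an unadjusted p below 0.05 with shBAP1 #1 and shBAP1 #2. Of these 12, 3 had a mean at or above 5.44.

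Cathepsins, the lysosomal proteases that several clade B serpins inhibit, gave 1 of 13 higher with both hairpins, CTSA, and 2 in opposite directions (6.22% and 3.44% of all genes). CTSA rose by 0.47 (adjusted p = 0.0055) and 0.80 (adjusted p = 0.000156). CTSB rose by 0.88 with shBAP1 #2 (adjusted p = 6.36e-06) and was -0.05 with shBAP1 #1. The dim CTSO fell by 0.32 with shBAP1 #1 (adjusted p = 0.0342) and rose by 0.54 with shBAP1 #2 (adjusted p = 0.00159). Its fall was lost without shBAP1 #1 replicate 2 (-0.34, adjusted p = 0.0655) or 3 (-0.21, adjusted p = 0.103) and without shControl replicate 1 (-0.31, adjusted p = 0.0999), 2 (-0.305, adjusted p = 0.0955) or 3 (-0.35, adjusted p = 0.0574). Of 31 inhibitors from other families, 1 rose with both hairpins (6.22% of all genes), the cystatin C gene CST3, by 0.47 (adjusted p = 0.00399) and 0.41 (adjusted p = 0.00637). With the mean of its probe sets the rise with shBAP1 #1 was 0.28 (adjusted p = 0.017). Without shBAP1 #2 replicate 1 that count was 3. PI3, which encodes the elastase inhibitor elafin, read 5.94, 5.89 and 6.03 in shControl, 6.18, 6.39 and 6.44 with shBAP1 #1, and 8.48, 7.98 and 7.91 with shBAP1 #2. Its change was 2.17 ± 0.14 with shBAP1 #2 (adjusted p = 4.89e-06) and 0.38 ± 0.14 with shBAP1 #1 (adjusted p = 0.0683), with a difference of 1.79 ± 0.14 (adjusted p = 6.35e-06). The value with shBAP1 #1 passed the threshold without shBAP1 #2 replicate 1 (adjusted p = 0.00598) and in the fit of these 2 groups alone (adjusted p = 0.0117). PEBP1, whose product inhibits kinases and serine proteases, rose by 0.51 with shBAP1 #1 (adjusted p = 0.0187) and fell by 0.67 with shBAP1 #2 (adjusted p = 0.00309). Its rise was lost without shBAP1 #1 replicate 1 (0.48, adjusted p = 0.068) or 2 (0.48, adjusted p = 0.0647) and without shControl replicate 1, 2 or 3 (0.51 each, adjusted p = 0.057, 0.0522 and 0.0526).

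**Figure D4:**
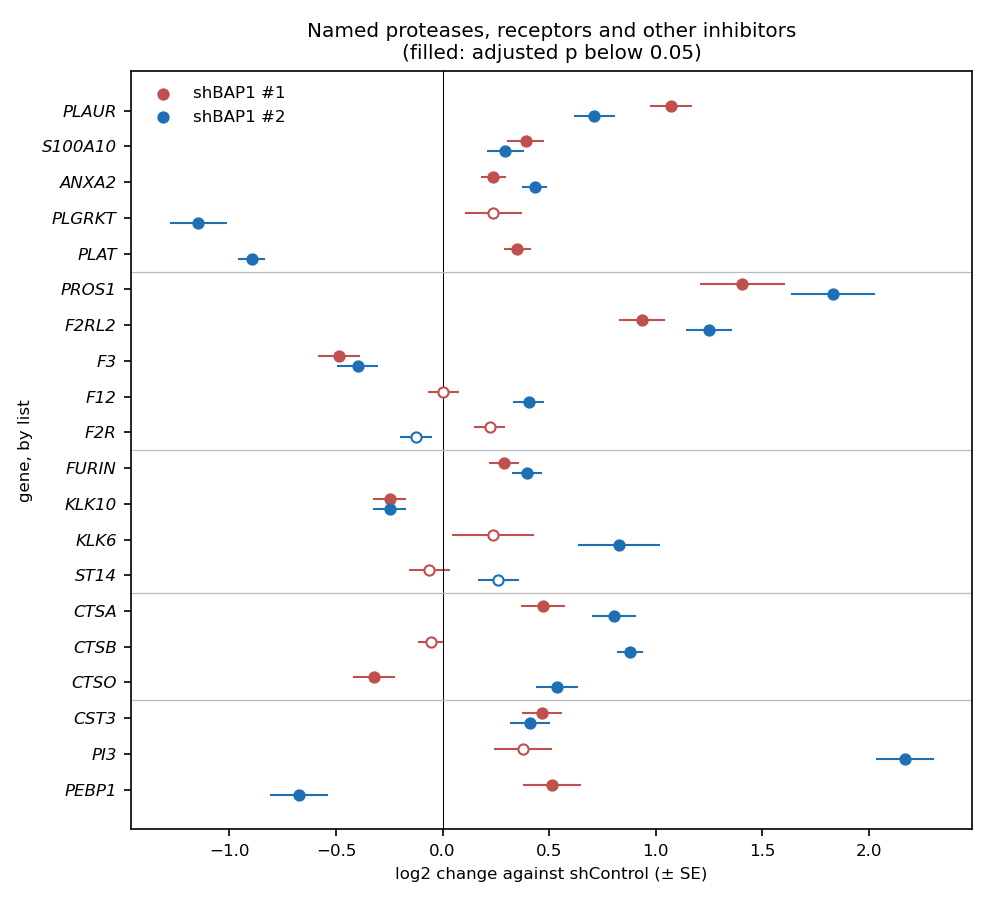
Log2 change against shControl (horizontal axis, bars for SE) of the proteases, receptors and other inhibitors named by rule, 1 row per gene, grouped by list from plasminogen activation at the top through coagulation, kallikreins and cathepsins to other inhibitors. Filled points passed the threshold; PLAT and PEBP1 rise with shBAP1 #1 and fall with shBAP1 #2, CTSO does the reverse, and PI3 stands at 2.17 with shBAP1 #2.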

How the data were processed

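Deposited values were log2 expression per probe set, which the authors made with RMA (robust multi-array averaging). The submitters' processing notes name it without a version. RMA forces 1 intensity distribution on all arrays, so a shift of all transcripts is removed and dim changes are compressed. The table held 54675 probe sets for 9 arrays. In the platform annotation 41097 had 1 gene symbol, 1801 several and 11777 were not listed. The brightest probe set of each gene was kept (19775 genes). All 36 members matched RefSeq by gene ID, with 0 renamed. For arrays, their number limits the precision.

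Linear models with moderated two-sided tests came from limma 3.58.1, run under R 4.3.3. All 9 arrays entered with group as the only term, leaving 6 residual degrees of freedom beside a prior of 4.33. P-values were adjusted by Benjamini-Hochberg over all genes, and the code was checked on simulated data. Members named were those called in at least 1 contrast with an absolute change of 0.5 or more. List genes named were up to 4 per list called with both hairpins with the largest smaller change, and up to 2 with the largest called difference, or else the 2 of smallest p (leukocyte proteases GZMK and PRTN3, not called). Members, lists, motifs and tests were chosen with earlier results of these data known. Alternatives were a replicate block, cyclic loess, median centring, leaving out dim probe sets, the mean of all probe sets, fits of 2 groups, a trended robust prior and leaving out each array. Promoter windows came from RefSeq, assembly GRCh38.p14. Figures used matplotlib 3.10.9 in Python 3.11.15.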

Additional observations from a re-analysis of the deposited data

Results flagged for a closer look

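For 5 members the effect of the hairpins differed by the test of shBAP1 #2 against shBAP1 #1. The difference was -1.201 for SERPINB7, -0.95 for SERPINI1, -0.76 for SERPINH1, 0.72 for SERPING1 and 1.06 for SERPINE2 (log2, limma, adjusted p of 0.00065 or less). All 5 kept this call in each of the 9 fits that left out 1 array. SERPINH1 alone of the 5 was raised by both hairpins.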

How the results depend on the processing

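The counts of called members stayed within 1.5 times their values under all alternatives, except for the mean of both hairpins, where leaving out 1 array gave 4 to 6 in place of 7. The shares of all genes called in these alternatives are not given here. The count of members without overlap between the hairpins was 9 to 18 when 1 array was left out. With fewer arrays such a count can rise for any set of genes. For SERPINB1 the difference between the hairpins was reversed with the mean of all probe sets, at -0.385, because the changes of its probe sets differ. That difference was 0.08 in the chosen probe set, and -1.35, -0.30 and 0.02 in the others. The kallikrein list's count with both hairpins was 1 in place of 2 with dim probe sets left out, the mean of all probe sets, the replicate block or fits of 2 groups, and 1 to 3 when 1 array was left out. The plasminogen list's count was 1 in place of 3 with the mean of all probe sets. The count of other inhibitors was 3 in place of 1 with fits of 2 groups, and 1 to 3 when 1 array was left out. The cause was not tested. Leaving out dim probe sets removes the dim members, SERPIND1 among them.

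Whether the replicate numbers pair the samples could not be decided. Same-numbered arrays of different groups correlated in their deviations at r = -0.21 to 0.216, and 4 of 9 such pairs exceeded 0.1. Those of shControl with shBAP1 #1 stood at 0.113, 0.203 and 0.216. In all, 6 of 9 arrays correlated best with their own number, more than random matches would give on average. With the replicate block, 8, 9 and 7 members were called for shBAP1 #1, shBAP1 #2 and the difference, against 8, 8 and 5, and 4 in the same direction with both. The shares of all genes called under the block are not given here, so these counts cannot be set against a background. The difference between the hairpins for SERPINA1 passed the threshold under the block (0.42, adjusted p = 0.0492). Signal over background limits the 21 members below the median level.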
